A study of Mus musculus with 2 samples.

Results

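The insulin-like growth factor (IGF) system was described here as 10 genes, the ligands Igf1 and Igf2, the receptors Igf1r and Igf2r, and the binding proteins Igfbp2 to Igfbp7, in single cells of mouse ovarian tumors. They were taken by symbol, whatever their values, and each of the 10 had exactly 1 row among the 32285 genes of the count matrices. Their levels were compared between cell classes that were gated on marker genes, none of which is one of the 10, and between the 2 tumor genotypes.

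IGF ligands are secreted peptides that signal through the receptor tyrosine kinase IGF1R, which passes the signal to the insulin receptor substrates, PI3 kinase and AKT. IGF2R (the cation-independent mannose 6-phosphate receptor) carries IGF2 and lysosomal enzymes to the lysosome and does not act as a kinase. The secreted binding proteins hold the ligands in extracellular fluid and matrix, where proteases such as PAPP-A release them, and in tumors fibroblasts and macrophages are known sources of IGF1.

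The cells came from omental tumors that KPCA cells formed in C57BL/6J mice after intraperitoneal grafting, collected on day 10 without treatment. KPCA is a line derived from mouse fallopian tube epithelium, with a mutant allele of Trp53 (R172H) and overexpression of Ccne1 and Akt2. The KPCA_FSTKO line lacks Fst, the gene of the activin antagonist follistatin, and the KPCA_FSTKO_hFSTL3 line is a stable clone of it that carries a human FSTL3 transgene, so both genotypes share the Fst deletion. Each genotype gave 1 library from 4 pooled tumors, the study's question being what tumors with forced FSTL3 expression contain. With 1 library per genotype no test between genotypes was possible, and the genotype, the clone and the library cannot be told apart. Fst, the deleted gene, had 115 CPM (UMIs of a gene per 1000000 UMIs of the class; 107 to 123) in stromal-like and 5.09 CPM (4.67 to 5.54) in cancer-like cells of KPCA_FSTKO. In those of KPCA_FSTKO_hFSTL3 it had 176 CPM (155 to 198) and 8.68 CPM (6.90 to 10.8). A 3′ tag outside the edited stretch reports nothing on the deletion, and the human transgene was not analysed here, since the reads were counted on a mouse reference, so these values do not check the labels.

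The libraries held 7582 barcodes with 168214773 UMIs (unique molecular identifiers, the counted RNA molecules) for KPCA_FSTKO and 4244 barcodes with 80391504 UMIs for KPCA_FSTKO_hFSTL3. After filters on the mitochondrial share (under 20%) and gene number (over 200 and under 8000), 6777 and 4041 barcodes remained, with medians of 17253 and 15071 UMIs. The study states as cell counts after quality control the 7582 and 4244 barcodes that were deposited. Of all barcode sequences, 12 occurred in both libraries, and none of these was gated in both.

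The libraries did not look alike, which bears on every comparison between genotypes. Marker scores, the UMIs of a marker list per 10000 UMIs of a barcode, put 4962 barcodes of KPCA_FSTKO (73.2% of those filtered) but only 505 of KPCA_FSTKO_hFSTL3 (12.5%) into 1 class. In KPCA_FSTKO_hFSTL3, 2799 barcodes (69.3%) carried cancer, stromal and macrophage markers together, against 104 (1.53%) in KPCA_FSTKO. In those 2799 barcodes the middle 90% of cancer scores ran from 25.1 to 43.9 and of macrophage scores from 20.9 to 44.1, and their median score for pancreatic acinar genes was 59.4, against 0 in the 104 mixed barcodes of KPCA_FSTKO. A doublet caller (Scrublet) marked 90 of 6777 barcodes (1.33%) and 1 of 4041 (0.0247%). The mixed barcodes were left out of every gated class, and the remaining values of KPCA_FSTKO_hFSTL3 rest on 261 cancer-like, 63 stromal-like, 12 endothelial-like and 140 macrophage-like cells, against 3529, 386, 52 and 770 in KPCA_FSTKO.

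**Figure D1:**
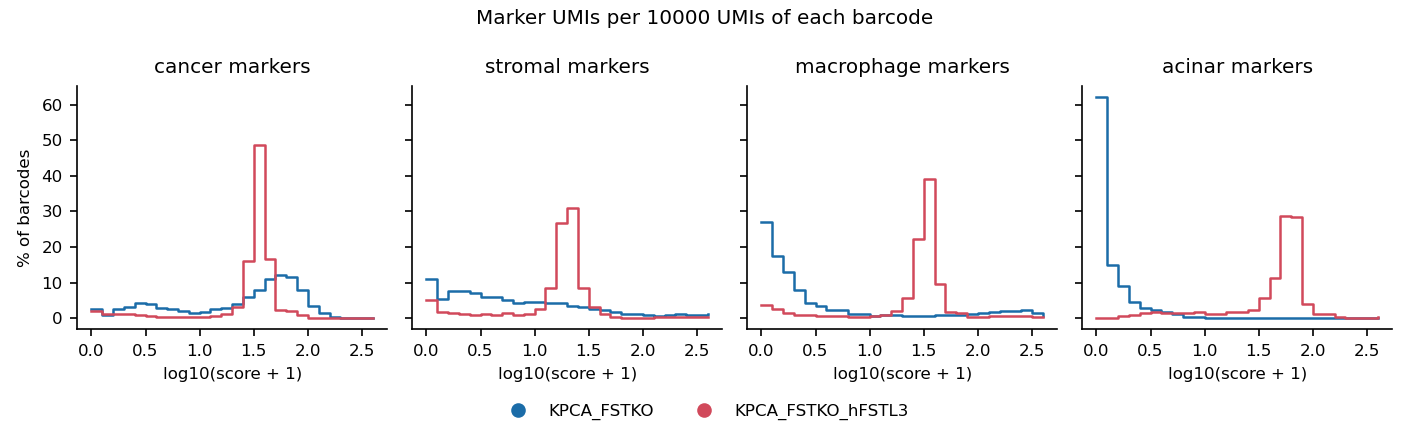
Each panel gives, for 1 marker list, the percentage of the filtered barcodes of a library (y axis) by marker UMIs per 10000 UMIs on a log10(score + 1) axis, with KPCA_FSTKO in blue and KPCA_FSTKO_hFSTL3 in red. The scores of KPCA_FSTKO spread from 0 upwards, while KPCA_FSTKO_hFSTL3 has 1 narrow peak for each list, acinar genes included, made by the 2799 mixed barcodes.

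The 4 main classes carried their own markers and little of the others. Of the smaller gated classes, mural-like cells also had median stromal scores of 80.7 and 111 UMIs per 10000 in KPCA_FSTKO and KPCA_FSTKO_hFSTL3, and neutrophil-like cells of KPCA_FSTKO a median macrophage score of 32.5. Their gates set no limit on those lists. All 13 stromal markers summed to 25629 CPM in stromal-like cells of KPCA_FSTKO and to 760.5 CPM in its cancer-like cells, where the collagen Col3a1 made up 553 CPM. The 10 endothelial markers summed to 7898 CPM in endothelial-like and 5.78 CPM in cancer-like cells, and the 11 macrophage markers to 21411 and 54.1 CPM in macrophage-like and cancer-like cells. Of the 14 cancer markers, Hmga2 was the most abundant in cancer-like cells of both libraries, at 1762 and 1609 CPM, and Muc16 was at 0 in those of KPCA_FSTKO_hFSTL3. The 11 acinar markers summed to 34.6, 109, 28.9 and 72.1 CPM in cancer-like, stromal-like, endothelial-like and macrophage-like cells of KPCA_FSTKO and to 372, 582, 982 and 781 CPM in those of KPCA_FSTKO_hFSTL3. Ctrb1, a chymotrypsinogen, was the most abundant acinar gene in all of these classes except the macrophage-like cells of KPCA_FSTKO, where it was Cela1, and the part of this RNA in the ratios below was not tested except by leaving out gated barcodes with a high acinar score.

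The levels of the IGF genes differed by class, with Igf1, Igfbp2, Igfbp5 and Igfbp6 highest in stromal-like cells, Igfbp3 and Igfbp7 highest in endothelial-like cells, and Igf1r spread over all 4 classes. Levels are per UMI of a class, so a class with a lower level can hold more of the RNA. Of the Igfbp6 UMIs of KPCA_FSTKO, cancer-like cells gave 76.9% and stromal-like cells 12.3%, and of those of Igfbp5 they gave 47.5% and 9.98%. A gene was said to have a leading class when it had at least 100 UMIs over the 4 classes and its CPM in 1 class was at least 2 times that in each other class. By this rule 6 of the 9 IGF genes with enough UMIs had a leading class in KPCA_FSTKO, where 30.3% of 13876 genes did. Stromal-like cells led for 4 (Igf1, Igfbp2, Igfbp5 and Igfbp6; 6.18% of all genes) and endothelial-like cells for 2 (Igfbp3 and Igfbp7; 8.27%). No IGF gene was led by cancer-like cells, which led for 8.17% of all genes, or by macrophage-like cells, which led for 7.7%. In KPCA_FSTKO_hFSTL3 the count was 7 of 9 against 27.1% of 9868 genes, with the same 6 genes in the same classes and Igfbp4 added to the stromal-led genes, making 5 where stromal-like cells led for 5.04% of all genes. The 2 endothelial-led genes stood beside 7.83% of all genes, and the 0 led by cancer-like and by macrophage-like cells beside 6.28% and 8.0%. Ranges after a level, share or ratio are exact 95% intervals, of the Poisson kind for CPM, by Clopper-Pearson for shares and from the conditional binomial for ratios. They cover counting error only, not differences between mice or libraries.

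**Figure D2:**
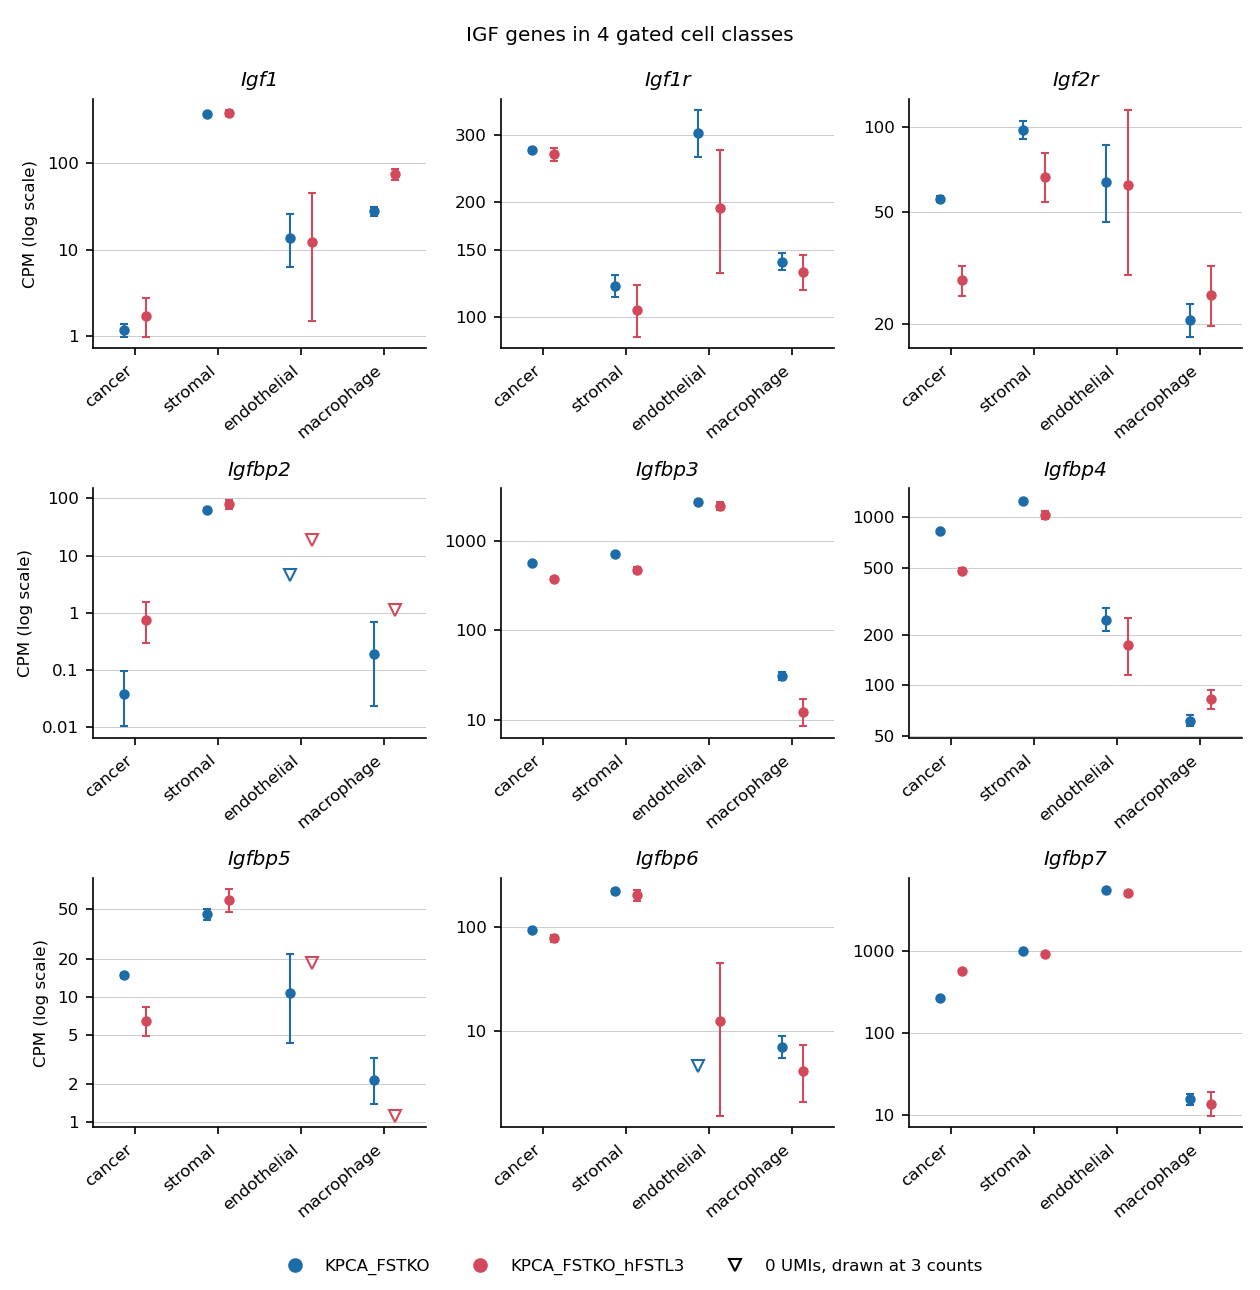
CPM on a log scale (y axis) of 9 IGF genes in the 4 gated classes (x axis), with KPCA_FSTKO in blue, KPCA_FSTKO_hFSTL3 in red, bars for the 95% counting interval and open triangles at 3 counts where no UMI was seen. Igf1, Igfbp2, Igfbp5 and Igfbp6 are highest in stromal-like cells and Igfbp3 and Igfbp7 in endothelial-like cells of both libraries; Igf2 is not drawn, with 12 UMIs in all.

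Igf1 (chr10:87858265-87937042 of GRCm38, plus strand) was the ligand detected in these tumors, with its highest level in stromal-like cells of both libraries. In KPCA_FSTKO its level was 370.0 CPM (356 to 384) in stromal-like, 27.9 CPM (24.8 to 31.3) in macrophage-like, 13.7 CPM (6.26 to 26.0) in endothelial-like and 1.17 CPM (0.977 to 1.40) in cancer-like cells. Stromal-like cells, 5.13% of the UMIs of that library, gave 79.4% of its Igf1 UMIs, and macrophage-like cells 8.69%. In KPCA_FSTKO_hFSTL3 stromal-like cells gave 25.1% of them and the mixed barcodes 61.8%. The level in stromal-like cells was 13.3 (11.7 to 14.99) times that in macrophage-like and 315 (263 to 380.2) times that in cancer-like cells, and only the macrophage-like and endothelial-like levels had overlapping intervals. KPCA_FSTKO_hFSTL3 gave the same order, with 378 CPM (348 to 410.1) in stromal-like, 74.4 CPM (64.4 to 85.4) in macrophage-like, 12.4 CPM (1.51 to 44.9) in endothelial-like and 1.72 CPM (0.981 to 2.79) in cancer-like cells.

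An Igf1 UMI was found in 284 of 386 cells (73.6%, 68.9 to 77.9) of the stromal-like class in KPCA_FSTKO and in 52 of 63 cells (82.5%, 70.9 to 90.9) of that class in KPCA_FSTKO_hFSTL3. After each cell was thinned to 1000 UMIs these shares were 25.6% (21.4 to 30.3) and 23.8% (14.0 to 36.2). In macrophage-like cells the shares were 158 of 770 cells (20.5%, 17.7 to 23.5) and 59 of 140 cells (42.1%, 33.9 to 50.8), or 3.77% (2.54 to 5.36) and 6.43% (2.98 to 11.9) after thinning. Lymphocyte-like cells, which should lack Igf1, had a UMI in 1 of 64 cells (1.56%, 0.0396 to 8.401) at a median depth of 4668.5 UMIs in KPCA_FSTKO, against 12996 UMIs in macrophage-like cells, and their level was 2.44 CPM (0.0617 to 13.6). Macrophage Igf1 in KPCA_FSTKO lay above that background level, with intervals that did not overlap, whereas the cancer-like level of 1.17 CPM (0.977 to 1.40) did not exceed it.

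Macrophage-like cells with an Igf1 UMI had more of 10 of the 11 macrophage markers than those without, in both libraries. Ms4a7, a membrane protein of macrophages named after its values were seen, differed most, at 233 CPM in the 158 cells of KPCA_FSTKO with an Igf1 UMI and 86.1 CPM in the 612 without. In KPCA_FSTKO_hFSTL3 it was at 237 and 70.9 CPM in 59 and 81 cells. Median depths were 13087.5 and 12996 UMIs in the first library and 21339 and 18260 in the second. Csf1r, the receptor of macrophage colony-stimulating factor, was at 423 against 309.5 CPM and at 564 against 432 CPM. The exception was Tyrobp, an adaptor of activating receptors, at 1425 against 1558 CPM and 1471 against 1572 CPM. These are descriptions of cells of 1 library each, with no test.

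Igf2 (chr7:142650766-142666816, minus strand), the fetal growth factor that is silenced after birth in most mouse tissues, was nearly absent. It had 12 UMIs in the 6777 filtered barcodes of KPCA_FSTKO, of which 6 fell in cancer-like cells and 2 in the stromal-like class, and 0 in KPCA_FSTKO_hFSTL3. An annotated gene of the same strand, Gm49394, overlaps it and was not analysed here, so reads shared by both could not be followed. H19, its imprinted neighbour, was detected at 53.7 CPM (48.5 to 59.3) in stromal-like and 6.81 CPM (6.32 to 7.32) in cancer-like cells of KPCA_FSTKO.

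Igf1r (chr7:67952827-68233668, plus strand), the signaling receptor, was found in all 4 classes without a leading one. Its level in KPCA_FSTKO was 303 CPM (262 to 348) in endothelial-like, 274 CPM (271 to 277) in cancer-like, 139.6 CPM (133 to 147) in macrophage-like and lastly 121 CPM (113 to 129) in stromal-like cells. The first 2 of these overlapped and stood apart from the last 2, so the class with most of the ligand had least of the receptor. In KPCA_FSTKO_hFSTL3 the levels were 267 CPM (256 to 277) in cancer-like, 193 CPM (131 to 273) in endothelial-like, 131 CPM (118 to 145) in macrophage-like and lastly 104 CPM (88.8 to 122) in stromal-like cells, and each overlapped its neighbour in the order.

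Outside the 4 classes, neutrophil-like cells had the highest Igf1r of the 8 gated classes of KPCA_FSTKO, at 1171 CPM (1035 to 1319) over 78 cells. This was 4.27 (3.77 to 4.81) times the level in cancer-like cells. An Igf1r UMI was found in 61 of 78 cells (78.2%, 67.4 to 86.8) of the neutrophil-like class at a median depth of 2829 UMIs, and in 55.1% (43.4 to 66.4) after thinning to 1000 UMIs, against 23.7% (22.4 to 25.2) in cancer-like, 3.12% (0.381 to 10.8) in lymphocyte-like and 1.72% (0.0436 to 9.24) in erythroid-like cells. Lymphocyte-like cells, at 19.5 CPM (8.42 to 38.4), and erythroid-like cells, at 41.0 CPM (21.2 to 71.6), had the lowest levels, so the receptor varied widely among blood cells. KPCA_FSTKO_hFSTL3 had no gated neutrophil-like cell, and the neutrophil value has no counterpart there.

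**Figure D3:**
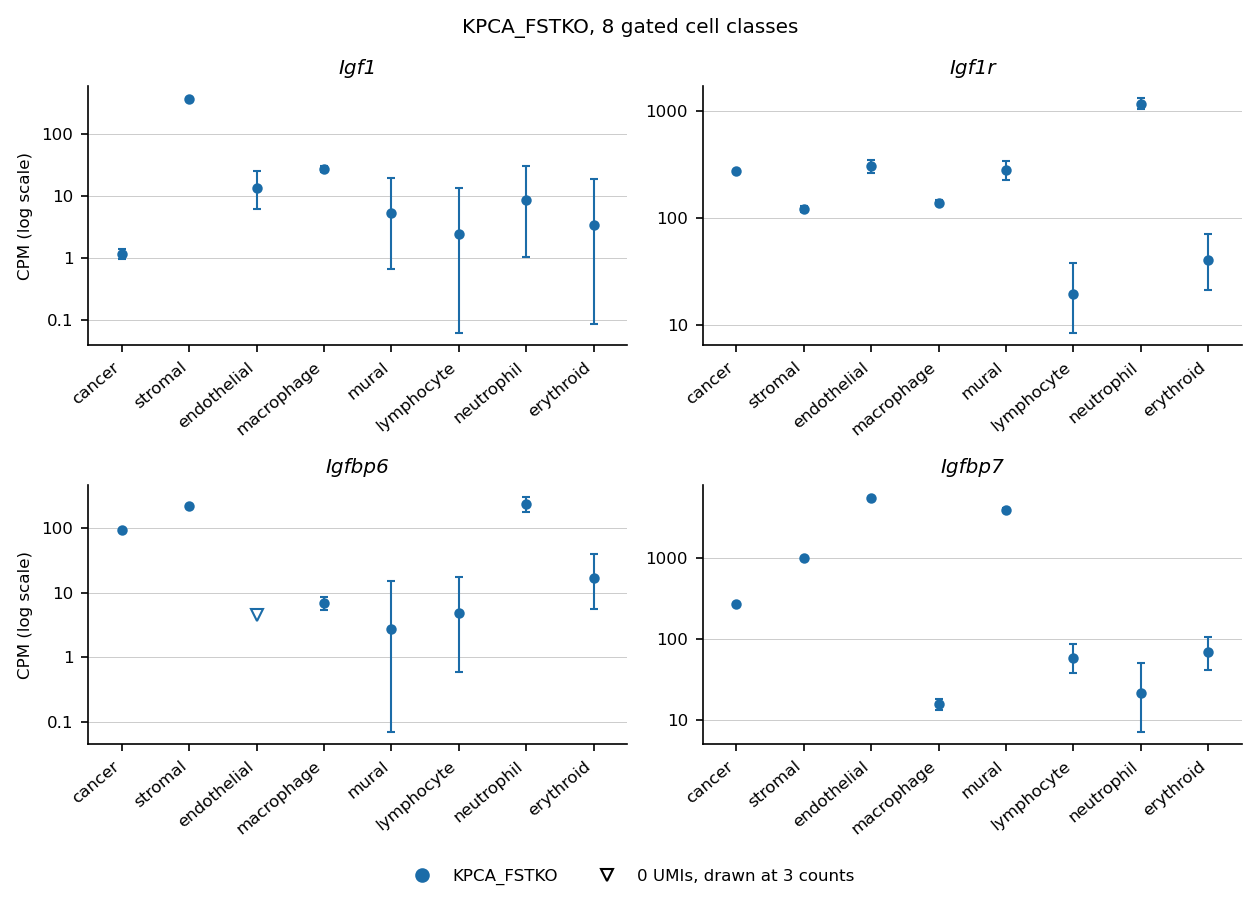
CPM on a log scale (y axis) of Igf1, Igf1r, Igfbp6 and Igfbp7 in the 8 gated classes of KPCA_FSTKO (x axis), with bars for the 95% counting interval and an open triangle at 3 counts where no UMI was seen. Igf1 stands out in stromal-like, Igf1r in neutrophil-like, and Igfbp7 in endothelial-like and mural-like cells, while Igfbp6 is similar in stromal-like and neutrophil-like cells.

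Igf2r (chr17:12682406-12769664, minus strand), the clearance receptor, had no leading class in either library. It was at 97.2 CPM (90.1 to 105) in stromal-like, 63.9 CPM (46.0 to 86.3) in endothelial-like, 55.5 CPM (54.1 to 57.0) in cancer-like and lowest, with 20.6 CPM (18.0 to 23.6), in macrophage-like cells of KPCA_FSTKO. In KPCA_FSTKO_hFSTL3 it was at 66.3 CPM (54.1 to 80.4), 62.1 CPM (29.8 to 114), 28.5 CPM (25.2 to 32.2) and 25.3 CPM (19.6 to 32.1) in the same classes. The order of the classes was shared, though in KPCA_FSTKO_hFSTL3 neighbours in the order overlapped. Airn, the antisense RNA that silences the paternal copy of Igf2r, overlaps it on the opposite strand and had 18203 UMIs in KPCA_FSTKO and 5396 in KPCA_FSTKO_hFSTL3, against 8262 and 1673 of Igf2r itself. The study ran Cell Ranger with standard parameters. Its use of strand was not checked here, and whether reads of the pair were exchanged was not tested.

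Igfbp3 (chr11:7206086-7213923, minus strand), the main carrier of IGFs in serum, and Igfbp7 (chr5:77349240-77408041, minus strand), a matrix protein of vessels with low affinity for IGFs, were the endothelial-led genes. Igfbp3 was at 2739 CPM (2614 to 2869) in endothelial-like, 714 CPM (695 to 734) in stromal-like, 563 CPM (558 to 567) in cancer-like and lowest, with 31.0 CPM (27.8 to 34.6), in macrophage-like cells of KPCA_FSTKO. In KPCA_FSTKO_hFSTL3 these levels were 2429.8 CPM (2195 to 2683), 471 CPM (437 to 506), 376 CPM (364 to 389) and 12.3 CPM (8.45 to 17.2). The 4 levels stood apart from each other in both libraries, and the endothelial-like level was 3.84 (3.63 to 4.05) and 5.16 (4.55 to 5.84) times the stromal-like one. Lymphocyte-like and erythroid-like cells of KPCA_FSTKO had 48.7 CPM (29.8 to 75.3) and 82.0 CPM (52.5 to 122), so the macrophage-like level was no higher than in cells that should lack the gene and is read as background.

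Igfbp7 marked the vessel wall. It was at 5580.1 CPM (5401 to 5764) in endothelial-like, 1022 CPM (999 to 1045) in stromal-like, 273 CPM (269.5 to 276) in cancer-like and lowest, with 15.5 CPM (13.2 to 18.1), in macrophage-like cells of KPCA_FSTKO, and at 5145 CPM (4801 to 5508), 941 CPM (894 to 991), 574 CPM (559 to 589.6) and 13.8 CPM (9.69 to 18.97) in those of KPCA_FSTKO_hFSTL3. Mural-like cells, the pericytes and smooth muscle of vessels, came next at 3983 CPM (3781 to 4193) over 25 cells and 3645 CPM (3411 to 3892) over 10 cells, so both gated classes of the vessel wall stood above the stromal-like class. The endothelial-like level was 5.46 (5.25 to 5.68) times the stromal-like one in KPCA_FSTKO and 5.47 (5.01 to 5.96) times in KPCA_FSTKO_hFSTL3. The macrophage-like levels lay below the 58.5 CPM (37.5 to 87.0) of lymphocyte-like cells in KPCA_FSTKO and are read as background. Gm34648 and Polr2b overlap Igfbp7 on the opposite strand, with 30 and 4505 UMIs in KPCA_FSTKO.

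The sequences upstream of 4 binding protein genes are shown because they stand for 3 class patterns: endothelial-led (Igfbp3, Igfbp7), nearly restricted to stromal-like cells (Igfbp2) and high in both stromal-like and cancer-like cells (Igfbp4). They are the 100 bases before the annotated start of RefSeq on GRCm38.p6, 5′ to 3′ on the strand of the gene. Capitals mark the motif TATAAA of the TATA box, its variant TATATA and the motif GGGCGG, part of the binding site of SP1. They were searched on both strands, where CCGCCC stands for GGGCGG, and do not overlap each other here. The windows are chr11:7213924-7214023 (minus strand) for Igfbp3, chr5:77408046-77408145 (minus) for Igfbp7, chr1:72824380-72824479 (plus) for Igfbp2 and chr11:99041144-99041243 (plus) for Igfbp4.
Igfbp3: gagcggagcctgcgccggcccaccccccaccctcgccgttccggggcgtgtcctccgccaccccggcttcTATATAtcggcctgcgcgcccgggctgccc
Igfbp7: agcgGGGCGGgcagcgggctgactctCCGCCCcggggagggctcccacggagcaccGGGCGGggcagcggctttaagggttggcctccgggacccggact
Igfbp2: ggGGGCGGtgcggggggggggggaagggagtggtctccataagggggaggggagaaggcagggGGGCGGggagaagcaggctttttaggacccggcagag
Igfbp4: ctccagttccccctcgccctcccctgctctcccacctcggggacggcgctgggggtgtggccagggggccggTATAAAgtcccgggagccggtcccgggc
Igfbp3 held 1 TATATA and Igfbp4 1 TATAAA, whereas Igfbp7 held 3 and Igfbp2 held 2 copies of GGGCGG and neither TATA form, so the endothelial-led pair, Igfbp3 and Igfbp7, did not share a motif. Over 32851 RefSeq windows that run from 250 bases before to 50 after a start, TATAAA was found in 13.6%, TATATA in 5.67% and GGGCGG in 35.7%, and over the 14 windows of the IGF genes in 2, 1 and 6. A match describes letters in a window, not a bound site.

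Igfbp2 (chr1:72824503-72852474, plus strand), a binding protein that is abundant in fetal tissues, was the most restricted of the 10 genes over the 4 classes of KPCA_FSTKO. Stromal-like cells gave 94.2% of its UMIs in KPCA_FSTKO, at 62.9 CPM (57.2 to 68.9), with 4 UMIs in all cancer-like, 2 in macrophage-like and 0 in endothelial-like cells. In KPCA_FSTKO_hFSTL3 it was at 79.8 CPM (66.3 to 95.1) in stromal-like cells, its 7 UMIs in cancer-like cells fell in 1 cell, and it was not seen in endothelial-like or macrophage-like cells. Stromal-like cells gave 41.2% of its UMIs in that library and the mixed barcodes 55.1%. An Igfbp2 UMI was found in 92 of 386 cells (23.8%, 19.7 to 28.4) of the stromal-like class in KPCA_FSTKO and in 20 of 63 cells (31.7%, 20.6 to 44.7) in KPCA_FSTKO_hFSTL3, or in 4.40% (2.59 to 6.96) and 9.52% (3.58 to 19.6) after thinning. Within the stromal-like class it was thus unevenly held.

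Igfbp5 (chr1:72857932-72874884, minus strand), which binds matrix and hydroxyapatite, lies 5457 bases from Igfbp2 on the other strand, yet was not restricted in the same way. It was at 45.7 CPM (40.9 to 50.9) in stromal-like, 14.9 CPM (14.2 to 15.6) in cancer-like, 10.6 CPM (4.28 to 21.9) in endothelial-like and 2.18 CPM (1.38 to 3.27) in macrophage-like cells of KPCA_FSTKO. In KPCA_FSTKO_hFSTL3 it was at 59.2 CPM (47.7 to 72.6) in stromal-like and 6.43 CPM (4.91 to 8.28) in cancer-like cells and had no UMI in the other 2 classes. The stromal-like level rests on few cells, with 82.6% of its UMIs in KPCA_FSTKO in the 5% of cells with most of them. The 17 stromal-like cells in the cluster led by Pcdh9, where 88.1% of all cells were cancer-like, were at 283 CPM of Igfbp5 and 2.86 CPM of Igf1, and the 353 in the stromal cluster at 33.9 CPM of Igfbp5. The cancer-like signal was concentrated too, with a UMI in 312 of 3529 cells (8.84%, 7.92 to 9.83) of the cancer-like class of KPCA_FSTKO and 91.5% of the UMIs in the 5% of cells with most of them.

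Igfbp4 (chr11:99041244-99054392, plus strand), the substrate of PAPP-A, was shared by stromal-like and cancer-like cells. Its levels in KPCA_FSTKO were 1244 CPM (1218 to 1269) in stromal-like, 825 CPM (819 to 830.4) in cancer-like, 246 CPM (209.9 to 287) in endothelial-like and 61.6 CPM (57.0 to 66.5) in macrophage-like cells. In KPCA_FSTKO_hFSTL3 they were 1029.9 CPM (980.1 to 1082), 482 CPM (468 to 496), 174 CPM (116 to 251) and 82.6 CPM (72.1 to 94.2). The order was the same and all neighbours stood apart, and the stromal-like over cancer-like ratio was 1.51 (1.48 to 1.54) in the first and 2.14 (2.02 to 2.26) in the second library, on either side of the 2-fold line for a leading class. The macrophage-like level of KPCA_FSTKO overlapped that of lymphocyte-like cells, 58.5 CPM (37.5 to 87.0). Whether either level is background was not tested.

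Igfbp6 (chr15:102144362-102149511, plus strand), which prefers IGF2 over IGF1, was stromal-led by the smallest margin of the 4 in KPCA_FSTKO. It was at 220.0 CPM (209 to 231) in stromal-like, 93.9 CPM (92.0 to 95.7) in cancer-like and only 7.004 CPM (5.50 to 8.79) in macrophage-like cells of KPCA_FSTKO and had no UMI in the 52 endothelial-like cells, which allows up to 4.56 CPM (3 counts). In KPCA_FSTKO_hFSTL3 it was at 201 CPM (179.7 to 225), 77.8 CPM (72.3 to 83.7) and 4.09 CPM (2.04 to 7.32) in the same order of classes, with 12.4 CPM (1.51 to 44.9) in endothelial-like cells. Neutrophil-like cells of KPCA_FSTKO, at 238 CPM (179 to 309), overlapped the stromal-like level, a binding protein in a blood cell class that the 4 main classes do not show.

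Stromal-like cells were further divided by markers into mesothelial-like cells (47 in KPCA_FSTKO, 13 in KPCA_FSTKO_hFSTL3), myofibroblast-like cells (95 and 24) and other stromal-like cells (244 and 26). In KPCA_FSTKO, Igf1 was even over the 3 kinds, at 342 CPM (309 to 378) in mesothelial-like, 380.1 CPM (354 to 408) in myofibroblast-like and 373 CPM (354 to 392) in other stromal-like cells. Igfbp3 and Igfbp7 were highest in myofibroblast-like cells. Igfbp3 was at 1554 CPM (1501 to 1609) there, against 438 CPM (418 to 458) in other stromal-like and 204 CPM (178 to 231) in mesothelial-like cells. Igfbp7 was at 1509 CPM (1456 to 1563) there, against 878 CPM (849.6 to 907) and 666 CPM (619 to 715) in the same 2 kinds. Igfbp5 went the other way and was lowest in myofibroblast-like cells. It was at 6.36 CPM (3.39 to 10.9) in myofibroblast-like, 56.9 CPM (49.8 to 64.7) in other stromal-like and 75.7 CPM (60.6 to 93.4) in mesothelial-like cells. Igfbp6 and Igfbp2 differed in which kind came first. Igfbp6 was highest in mesothelial-like cells, at 386 CPM (350.5 to 423), against 175 CPM (157 to 194) and 196 CPM (183 to 210.2) in myofibroblast-like and other stromal-like cells. Igfbp2 was at 116 CPM (102 to 132) in myofibroblast-like, 77.5 CPM (62.2 to 95.3) in mesothelial-like and 32.0 CPM (26.8 to 38.0) in other stromal-like cells. Igfbp4 was nearly as even as Igf1, at 1115 CPM (1055 to 1178) in mesothelial-like, 1383 CPM (1333 to 1435) in myofibroblast-like and 1209.8 CPM (1176 to 1244) in other stromal-like cells.

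In KPCA_FSTKO_hFSTL3 the highest kind was the same for Igfbp3, at 658 CPM (598 to 722) in myofibroblast-like cells, for Igfbp7, at 1150.0 CPM (1070.4 to 1234) in myofibroblast-like cells, for Igfbp5, at 196 CPM (155 to 245) in mesothelial-like cells, and for Igfbp6, at 272 CPM (223 to 328) in mesothelial-like cells. For Igfbp4 it was not the same, with its lowest level, 805 CPM (738 to 876), in myofibroblast-like cells, nor for Igfbp2, with 167 CPM (133 to 208) in other stromal-like and 22.3 CPM (12.5 to 36.8) in myofibroblast-like cells. Igf1 was at 493 CPM (426 to 567) in mesothelial-like, 441 CPM (384 to 505) in other stromal-like and 265 CPM (227 to 307) in myofibroblast-like cells, and so was not even over the 3 kinds there. These values rest on 13, 26 and 24 cells.

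**Figure D4:**
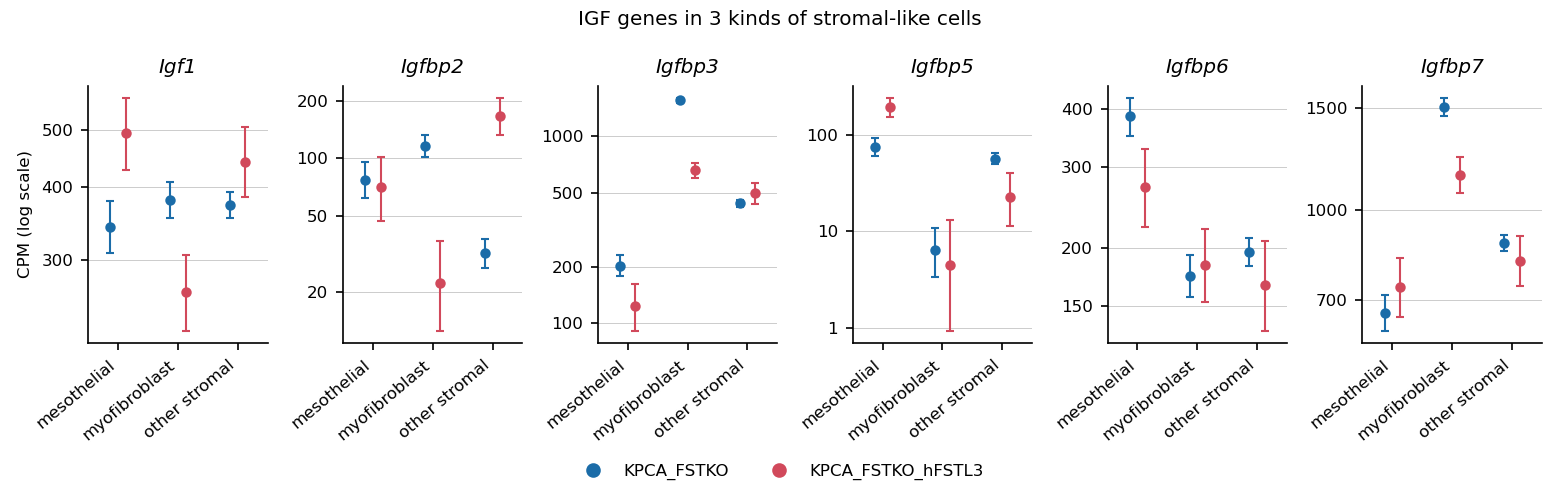
CPM on a log scale (y axis) of 6 IGF genes in mesothelial-like, myofibroblast-like and other stromal-like cells (x axis), with KPCA_FSTKO in blue, KPCA_FSTKO_hFSTL3 in red and bars for the 95% counting interval. Igfbp3 and Igfbp7 peak in myofibroblast-like cells of both libraries and Igfbp5 is lowest there, while Igfbp2 has opposite orders in the 2 libraries.

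Cancer-like cells varied among themselves most in Igfbp5 and in the receptors. Clusters of all filtered barcodes placed 35.4% of the cancer-like cells of KPCA_FSTKO in a cluster led by Pcdh9, Lbp and Ptn, 22.8% in one led by Gsta4 and Gas5, and 12.5% in one led by the mitosis genes Cenpf and Top2a. Igfbp5 was at 25.4, 11.8 and 1.95 CPM in the cancer-like cells of these 3 clusters. Over the 6 clusters that held at least 5% of the class, Igf1r was highest in a cluster led by Gm26917 and Taco1 (8.81% of the cells), at 806 CPM, and lowest at 73.1 CPM in a cluster led by Gas5 and Rps26 (5.53%), and Igf2r followed with 139 and 16.4 CPM. Over the same 6 clusters Igfbp4 lay between 541 and 947 CPM and Igfbp7 between 216 and 349.7 CPM, closer together than the receptors. The clusters were built on many genes at once, and these values are descriptions of them.

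Over the 3529 cancer-like cells of KPCA_FSTKO the 2 receptors had a Spearman correlation of 0.27 in CPM, and over the 261 of KPCA_FSTKO_hFSTL3 of 0.40. Cells of a library share depth and capture, and these coefficients are descriptions. In stromal-like cells Igfbp4 and Igf1 had a correlation of 0.47 and 0.43 in the same order of libraries, so the cells with more of the ligand also had more of that binding protein.

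Between the libraries, most IGF genes differed by less than 2-fold within a class. Ratios are the CPM of KPCA_FSTKO_hFSTL3 over that of KPCA_FSTKO for genes with at least 100 UMIs over both libraries. In cancer-like cells 8 of the 10 genes could be compared, and their median log2 ratio was -0.43 against 0.01 over all 12946 genes. Of these 8, 1 was at least 2-fold higher, where 3.21% of all genes were, and 1 at least 2-fold lower, where 7.01% were. Igfbp7 was the higher one, with 273 CPM (269.5 to 276) and 574 CPM (559 to 589.6) and a ratio of 2.11 (2.04 to 2.17). Igfbp5 was the lower one, with 14.9 CPM (14.2 to 15.6) and 6.43 CPM (4.91 to 8.28) and a ratio of 0.432 (0.328 to 0.559). The other 6 stayed within 2-fold, and the receptors parted. Igf2r came close to the 2-fold line at 0.513 (0.452 to 0.581), followed by Igfbp4 at 0.584 (0.566 to 0.602), Igfbp3 at 0.668 (0.646 to 0.691) and Igfbp6 at 0.829 (0.768 to 0.894). Igf1r, the signaling receptor, had a ratio of 0.973 (0.934 to 1.01), and Igf1, at the background level in both, of 1.46 (0.810 to 2.47). Over the alternatives of processing the Igf1 ratio ran from 0.965, with an acinar score under 10, to 9.94, with clusters in place of gates, so no direction is read from it. That choice counted 964 barcodes of KPCA_FSTKO_hFSTL3 as cancer-like, among them a cluster of which 80.3% were mixed barcodes, and with only clusters of which over 50% were gated the ratio was 1.70.

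The cancer-like cells of the libraries did not fall into the same clusters, and 12.6% and 9.96% of those of KPCA_FSTKO_hFSTL3 lay in 2 clusters that were mostly made of its other barcodes and led by Rpgrip1 and by Try5. Igfbp7 was therefore also set side by side within clusters. It was at 327 and 792 CPM in the cancer-like cells of the cluster led by Pcdh9 (1248 and 74 cells), at 216 and 380 CPM in that led by Gsta4 (806 and 37 cells) and at 255 and 445 CPM in that led by Cenpf (441 and 28 cells). It was also higher in KPCA_FSTKO_hFSTL3 in the cluster led by Ube2c and Cdca3, at 140 and 607 CPM (115 and 33 cells), but lower in that led by Gas5 and Rps26, at 248.6 and 110 CPM (195 and 8 cells). In 3 other clusters it was higher as well, at 244 and 365 CPM in that led by Hells and Mcm3 (405 and 12 cells), at 349.7 and 686 CPM in that led by Gm26917 (311 and 10 cells) and at 387 and 617 CPM in that led by Rpgrip1 (3 and 33 cells). The ratio was below 2 in these 3 and in the clusters led by Gsta4 and by Cenpf. Igfbp5 was at 25.4 and 12.97 CPM, at 11.8 and 0.465 CPM and at 1.95 and 3.94 CPM in the clusters led by Pcdh9, Gsta4 and Cenpf, so its direction was not the same in the cluster led by Cenpf. Over the alternatives of processing the cancer-like ratio of Igfbp7 ran from 1.81 to 2.17, under 2 with TMM scaling and with clusters in place of gates, and that of Igfbp5 from 0.250 to 0.586, above 0.5 when all deposited barcodes were used. Igf2r passed the 2-fold line under several of these alternatives, with ratios from 0.378 to 0.538. For Igfbp5 in cancer-like cells no ratio was given without the top 5% of barcodes. Its level in KPCA_FSTKO_hFSTL3 rests on 60 UMIs in 11 of the 261 cancer-like cells. The acinar genes that moved with the library are given with the gates, and the Igfbp7 level of the mixed barcodes, 404 CPM (398 to 409), lay between those of the cancer-like cells of KPCA_FSTKO and KPCA_FSTKO_hFSTL3.

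Over all stromal-like cells, none of the 9 IGF genes compared was 2-fold higher or lower, where 1.61% and 2.14% of 8347 genes were, and their median log2 ratio was -0.13 against 0.08 over all genes. Igf1 itself had a ratio of 1.02 (0.933 to 1.12), the nearest to 1 of the 9. Igfbp3, at 0.660 (0.610 to 0.713), and Igf2r, at 0.682 (0.549 to 0.840), were the lowest, and Igfbp5, at 1.29 (1.02 to 1.64), and Igfbp2, at 1.27 (1.03 to 1.55), the highest. These ratios pool stromal kinds that were mixed unequally, with 95 of 386 and 24 of 63 cells myofibroblast-like, and within kinds some levels were more than 2-fold apart. Igfbp3 in myofibroblast-like cells was at 1554 and 658 CPM. Igfbp2 was lower in myofibroblast-like cells of KPCA_FSTKO_hFSTL3 and higher in its other stromal-like cells, and Igfbp5 was higher in its mesothelial-like and lower in its other stromal-like cells, at the levels given above. In endothelial-like cells, with 12 cells in KPCA_FSTKO_hFSTL3, none of the 4 compared passed 2-fold, beside 2.14% higher and 4.09% lower of 1542 genes. Igfbp7 had a ratio of 0.922 (0.854 to 0.995), Igfbp3 of 0.887 (0.793 to 0.990), Igfbp4 of 0.706 (0.455 to 1.06) and Igf1r of 0.637 (0.421 to 0.933), with a median log2 ratio of -0.34 against 0.00 over all genes. The intervals of Igfbp4 and Igf1r include a 2-fold lower level, so their side of that line was not detectable at this depth.

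In macrophage-like cells Igf1 was the gene that stood out. Its level was 27.9 CPM (24.8 to 31.3) in KPCA_FSTKO and 74.4 CPM (64.4 to 85.4) in KPCA_FSTKO_hFSTL3, a ratio of 2.66 (2.21 to 3.20), which made it the 1 of 6 compared genes that was at least 2-fold higher, where 1.52% of 8592 genes were. Igfbp3 was the 1 at least 2-fold lower, at 0.395 (0.268 to 0.566), where 1.16% were, but both of its levels lay below the lymphocyte-like level of KPCA_FSTKO. The remaining 4 differed little. Igf1r, Igf2r, Igfbp4 and Igfbp7 had ratios of 0.938 (0.832 to 1.05), 1.23 (0.919 to 1.62), 1.34 (1.15 to 1.56) and 0.886 (0.603 to 1.27), and the median log2 ratio of the 6 was 0.10, as over all genes. The Igf1 ratio ran from 2.33 to 3.64 over the alternatives of processing, with the lowest value in barcodes with an acinar score under 10. In the cluster that held 94.9% and 87.9% of the macrophage-like cells, led by Cacna1d and Chil3, Igf1 was at 28.1 and 82.2 CPM. In the cluster led by F13a1 and Arhgap15, with 37 and 16 of these cells, it was at 25.3 and 34.8 CPM, a smaller difference. The thinned shares of cells with an Igf1 UMI, 3.77% (2.54 to 5.36) and 6.43% (2.98 to 11.9), had overlapping intervals, and lymphocyte-like cells of KPCA_FSTKO_hFSTL3, only 12, had 10.1 CPM (0.256 to 56.4) from 1 UMI. Stromal markers summed to 103 CPM in macrophage-like cells of KPCA_FSTKO and to 53.2 CPM in those of KPCA_FSTKO_hFSTL3. Col3a1 was the most abundant of them in both. The gate let in only barcodes with a stromal score under 10, and the part of stromal RNA in the Igf1 difference was not tested. The median acinar score was 0 and 6.87 in these cells, and Igf1 in the mixed barcodes of KPCA_FSTKO_hFSTL3 was at 27.8 CPM (26.3 to 29.2); the part of such RNA in the difference was tested only by leaving out barcodes with an acinar score of 10 or more.

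**Figure D5:**
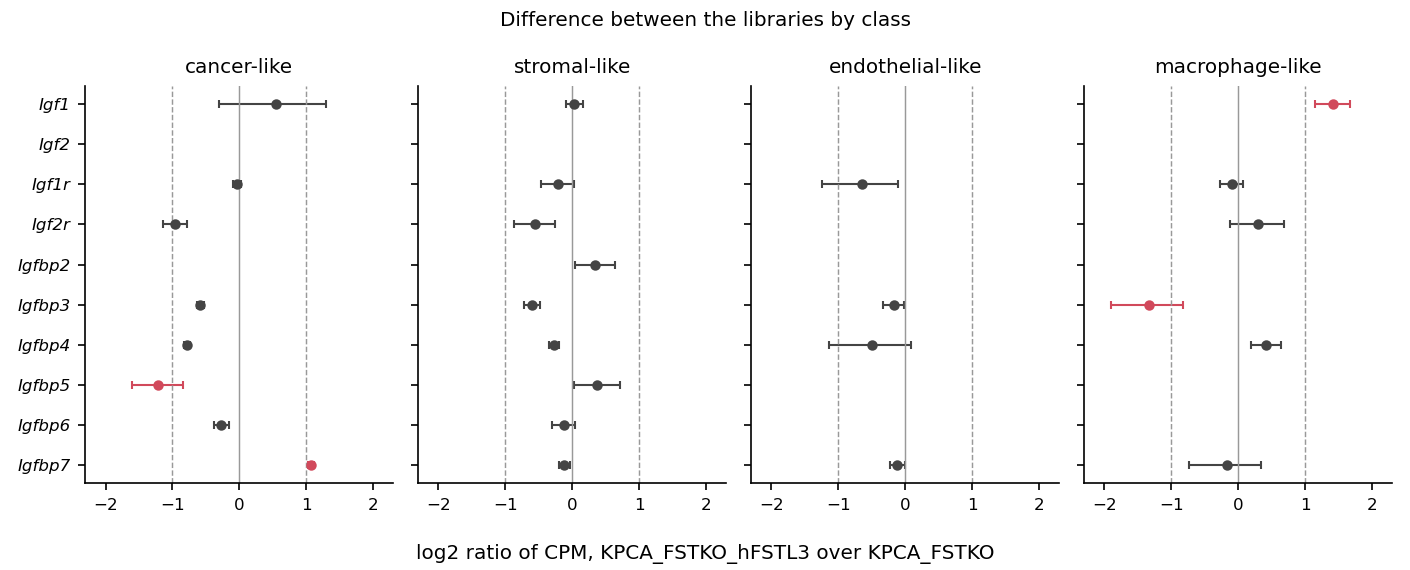
Log2 ratio of CPM of KPCA_FSTKO_hFSTL3 over KPCA_FSTKO (x axis) for the IGF genes that could be compared (y axis) in each of the 4 classes, with bars for the 95% counting interval, dashed lines at 2-fold and red for genes at or past it. Red points are Igfbp7 (higher) and Igfbp5 (lower) in cancer-like cells and Igf1 (higher) and Igfbp3 (lower) in macrophage-like cells.

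The 2799 mixed barcodes of KPCA_FSTKO_hFSTL3 held values between the lowest and the highest of its 4 classes, except for Igf2r, which at 21.2 CPM (19.97 to 22.5) was below all of them. Igf1 was at 27.8 CPM (26.3 to 29.2), Igf1r at 106 CPM (103 to 109) and Igfbp2 at 3.18 CPM (2.71 to 3.70). Igfbp3 was at 286 CPM (282 to 291), Igfbp4 at 377 CPM (371 to 382) and Igfbp7 at 404 CPM (398 to 409) there. They entered no ratio between gated classes.

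Of 35 other genes of the pathway in 6 lists, 26 could be compared in cancer-like, 27 in stromal-like, 9 in endothelial-like and 19 in macrophage-like cells. None of those compared was 2-fold higher in KPCA_FSTKO_hFSTL3, where 3.21%, 1.61%, 2.14% and 1.52% of all genes were. Of them, 2 in cancer-like cells, 3 in stromal-like cells and 0 in macrophage-like cells were 2-fold lower, where 7.01%, 2.14% and 1.16% of all genes were. The share in cancer-like cells was thus near that over all genes. Their median log2 ratios were -0.02, 0.03 and 0.05 in these 3 classes. The proteins closest to the binding proteins, Igfbp1, Igfals and Igfbpl1, could be compared in no class, with 4, 66 and 2 UMIs in the 4 classes of KPCA_FSTKO. The insulin genes Ins1 and Ins2 had 0 UMIs in these classes of KPCA_FSTKO, with 1 UMI of Ins2 in KPCA_FSTKO_hFSTL3, and Igf2os had 1 in KPCA_FSTKO. H19 was lower in cancer-like cells at 0.268 (0.155 to 0.432) and in stromal-like cells at 0.432 (0.298 to 0.608).

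Among the binding protein proteases and their inhibitors, Pappa, the protease that cuts IGFBP4, was stromal-led in both libraries, whereas Igfbp4 was stromal-led only in KPCA_FSTKO_hFSTL3. Pappa was at 55.6 CPM (50.3 to 61.3) in stromal-like and 0.563 CPM (0.430 to 0.725) in cancer-like cells of KPCA_FSTKO. Htra1, a secreted serine protease and the gene of this list with most UMIs, was stromal-led too, at 223 CPM (212 to 234) in stromal-like and 85.6 CPM (83.9 to 87.4) in cancer-like cells, and Adamts1 was at 304 CPM (263 to 349) in endothelial-like and next 183 CPM (174 to 194) in stromal-like cells. The stanniocalcins, which inhibit PAPP-A, were the genes of this list below the 2-fold line between libraries in stromal-like cells, Stc1 at 0.281 (0.126 to 0.548) and Stc2 at 0.422 (0.253 to 0.668). Stc1 was endothelial-led in KPCA_FSTKO, with 120.2 CPM (95.1 to 149.7) there, and stromal-like cells came next with 20.6 CPM (17.4 to 24.2).

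Insr, the insulin receptor that can pair with IGF1R, was endothelial-led in both libraries, unlike Igf1r. Its level was 823 CPM (755 to 895) in endothelial-like and next 49.4 CPM (44.4 to 54.8) in stromal-like cells of KPCA_FSTKO, and 528 CPM (422 to 653) and 45.7 CPM (35.7 to 57.6) in those of KPCA_FSTKO_hFSTL3. Irs2, an adaptor below both receptors, had the largest difference of the 35 genes, with 13.7 CPM (13.02 to 14.4) and 2.14 CPM (1.31 to 3.31) in cancer-like cells and a ratio of 0.156 (0.0952 to 0.242). Irs1, the other adaptor, had a ratio of 0.630 (0.535 to 0.738) in those cells. Akt2, which KPCA cells are made to overexpress, was at 57.0 CPM (51.6 to 62.7) in stromal-like and 31.9 CPM (30.8 to 33.0) in cancer-like cells of KPCA_FSTKO, and whether the introduced copy is counted there is not given in the sources used here. In the growth hormone list, Ghr, the receptor whose signal induces Igf1 in liver, had 307 CPM (304 to 311) in cancer-like cells of KPCA_FSTKO and 608 CPM (593 to 624) in those of KPCA_FSTKO_hFSTL3, a ratio of 1.98 (1.92 to 2.04) just under 2, and Jak2, its kinase, had a ratio of 0.895 (0.815 to 0.982).

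The genes whose levels were most like those of each IGF gene were found by Pearson correlation of log2(CPM + 1) over the 10 combinations of class and library with at least 50 cells. These points share libraries and their depths, and the coefficients are descriptions. Clmp, Nectin1 and Saa3 were most like Igf1 (0.96, 0.96 and 0.94). Vsig10l was most like Igf1r (0.96) and 4930511M06Rik most like Igf2r (0.92). Among the stromal-led binding proteins Barx1 was most like Igfbp2 (1.00), Antxr1 most like Igfbp5 (0.96) and Dlg3 most like Igfbp6 (0.97), and Hoxb2 was most like Igfbp4 (0.97). For the endothelial-led pair they were Ptprg, most like Igfbp3 (0.99), and Cachd1, most like Igfbp7 (0.99). No gene was named for more than 1 of the 9 IGF genes in this way.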

How the data were processed

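Single cells of 4 pooled omental tumors per genotype were measured in 1 library each with a 10x Genomics 3-prime kit. The authors ran Cell Ranger (3.1.0 in the submitters' processing notes, 7.2.0 in the matrix header) on mm10 and deposited raw UMI counts by gene and barcode, not normalized and without the filters of their methods, which were applied here (mitochondrial share under 20%, over 200 and under 8000 genes). The study states standard parameters for Cell Ranger, and the use of strand in counting was not checked here.

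Marker scores were UMIs of a list per 10000 UMIs of a barcode. A barcode entered a class with at least 2000 UMIs, at least 3 markers, a score over the cut of that class and scores under the lower absence cuts of the other lists. Exceptions were a stromal score of under 50 in cancer-like cells, any cancer score in mesothelial-like, any stromal score in mural-like and any macrophage score in neutrophil-like cells. Cancer-like cells needed a score of 20 and stromal-like cells of 50. The cuts were set after the marker counts were seen, and 157 and 9 cancer-like, 15 and 0 stromal-like, 0 and 0 endothelial-like and 22 and 4 macrophage-like cells lay within 20% above them. Mixed barcodes reached the absence cuts of the cancer, stromal and macrophage lists together. Mesothelial-like cells had at least 3 mesothelial markers and myofibroblast-like cells a score of at least 10.

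Counts were summed per class and library and divided by the class total (CPM). With 1 library per genotype no test was made. A gene counted as different at 2-fold with at least 100 UMIs. On simulated counts for cancer-like cells (12946 genes) the rule found 100% of genes raised and 98% of genes lowered 4-fold and called 0.33% of unchanged ones. These counts were drawn with counting error alone, without differences between cells, clusters or libraries, so a 4-fold change was nearly certain to pass. The 0.33% is not an error rate for the real libraries. The 10 genes, the lists of pathway genes and the markers were chosen with earlier results of these data known. All 10 genes are named. Of each pathway list the genes at least 4-fold apart or, where none, the 2 with most UMIs are named, and H19, Pappa, Stc1, Stc2, Insr, Irs1 and Akt2 were added after their values were seen, as were Airn and the marker genes. Some genes that these rules would name, and part of the genotype of the KPCA cells, are not reported here.

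Alternatives were 11 planned choices (gates, filters, clusters, TMM scaling, doublets, minimum UMIs and fold) and 3 added after the data were seen. Clusters were made with Seurat 5.3.0 (R 4.3.3; 2000 variable genes, 10 components, 20 neighbours, resolution 0.8), TMM factors with edgeR 4.0.16, doublet calls with Scrublet in scanpy 1.11.5, and all else with Python 3.11.15, numpy 2.4.6, scipy 1.17.1 and pandas 2.3.3. Doublet calls were kept. Gene positions are from GRCm38, the build of mm10.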

Additional observations from a re-analysis of the deposited data

Results flagged for a closer look

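Igfbp2 and Igfbp5 had opposite differences between the libraries in kinds of stromal-like cells. The log2 ratio of KPCA_FSTKO_hFSTL3 over KPCA_FSTKO for Igfbp2 was -2.38 in myofibroblast-like cells and 2.38 in other stromal-like cells, and that for Igfbp5 was 1.37 in mesothelial-like cells and -1.33 in other stromal-like cells. Each kind is 1 pool of cells per library, so these differences between kinds were not tested. In KPCA_FSTKO_hFSTL3 an Igfbp2 UMI was found in 6 of 24 myofibroblast-like and 8 of 26 other stromal-like cells, and an Igfbp5 UMI in 6 of 13 mesothelial-like and 2 of 26 other stromal-like cells.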

How the results depend on the processing

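The numbers of IGF genes past 2-fold were 2 in cancer-like, 0 in stromal-like, 0 in endothelial-like and 2 in macrophage-like cells. At a minimum ratio of 1.5 they were 4 in cancer-like, 1 in stromal-like and 1 in endothelial-like cells, and the endothelial-like number was also 1 without the top 5% of barcodes and with an acinar score under 10. That gene was Igf1r, with a lowest ratio of 0.457. The number in macrophage-like cells was 2 or 3 throughout. No share over all genes is given for the alternatives, so these numbers are not read as particular to the IGF genes. The genes behind a number were not the same throughout. Igfbp7 in cancer-like cells was at 1.97 under TMM scaling and 1.81 with clusters in place of gates, and Igf2r passed 2-fold with both. With clusters, 2 of those taken as cancer-like held few gated cells, and 80.3% of that led by Rpgrip1 were mixed barcodes. Without these 2 and other clusters under 50% gated, Igfbp7 was at 2.07. TMM scaling moved the log2 ratios of all genes by -0.10 in cancer-like, -0.13 in stromal-like, -0.11 in endothelial-like and -0.15 in macrophage-like cells. The cause of the other shifts was not tested. Of 318 log2 ratios of IGF genes under an alternative, 282 stayed within the counting interval of the reported value, 36 moved beyond it and 0 called ones changed sign, and of 940 levels 181 moved. IGF genes with a leading class numbered 5 to 8 in KPCA_FSTKO and 5 to 7 in KPCA_FSTKO_hFSTL3, again without a share over all genes for the alternatives. With clusters in which over 50% of the cells were gated, no endothelial-like class was left and its results could not be given. No paired analysis was possible because each genotype has 1 library. Among the 4 main classes, depth limits the endothelial-like values most, with 12 cells in KPCA_FSTKO_hFSTL3. The mural-like and lymphocyte-like values of that library rest on 10 and 12 cells.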
